A study of Mus musculus with 12 samples.

Results

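AGO2 peaks outside annotated genes were the peaks that overlapped no GENCODE M21 gene body (mm10) on their own strand by 1 nt or more. Over the P7 and P15 target lists they were 1163 of 10057 peaks. At P7, 611 of 4884 peaks lay outside genes (12.5%, exact 95% binomial interval 11.6 to 13.5), and at P15, 552 of 5173 (10.7%, 9.84 to 11.5). P15 target replicate 2 also has a list of its own, called the replicate 2 list here, and of its peaks 681 of 1624 (41.9%) lay outside genes. What sets that list apart from the P15 list is not given in the sources used here.

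The RNA came from cerebella of homozygous conditional Spy3-Ago2 mice given an AAV with Cre driven by L7, a promoter active in Purkinje cells, into the cerebral ventricles at P0. Cerebella were taken at P7 and P15, with 2 target libraries at each age, and AGO2 was pulled down on a SpyCatcher3 resin. All groups carry the Spy3-Ago2 allele and the AAV, the genotype field of the labels reads WT throughout, and the labels do not name the animals behind each library. Each list gives the position and strand of a peak and a score of 0, so a peak here has a place and a width but no height, and ages are compared list against list with no replicate error. Of 25 Purkinje cell genes chosen for this work, 17 held peaks inside their bodies at each age. Of 15 granule cell genes 9 (P7) and 13 (P15) did so too, and of 15 glial genes 9 and 7. In the replicate 2 list 8 of the Purkinje cell, 8 of the granule cell and 5 of the glial genes did. The share over all genes was not counted, so these counts have no background. The exact intervals cover counting error only, and an age has 1 list, whose peaks do not stand for replicates.

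AGO2 carries a miRNA and pairs it with target RNA, in mammals mostly within 3' UTRs. A peak outside the annotated genes can lie on a transcript that runs past its annotated end, on a small RNA gene that the annotation does not list, or on the strand opposite a gene. Transfer RNAs, which bring amino acids to the ribosome, are such small RNAs, and cells also hold pieces of them, cut at the anticodon loop.

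The largest set of peaks outside genes was narrow, up to 30 nt wide, and the sequence of the few that could be read is shown first. No genome sequence was used here, so a peak's sequence was read only where it lay whole within an annotated exon, here one of the other strand, or within a RefSeq promoter window (GRCm38.p6). That gave 14 of the 431 narrow peaks at P7 and 11 of the 302 at P15, at 15 places in all. At 12 of the 15 places (80.0%, 51.9 to 95.7) the peak's own strand held a run of 8 or more bases in common with the 5' RNA adapter of the libraries. The adapter, written as DNA without its random bases, and then these 12 peaks follow, 5' to 3', with the run shared with the adapter in capitals and the peaks ordered by where the run lies in the adapter.
5' RNA adapter: gttcagagttctacagtccgacgatc
Proser2, antisense to an exon (P15, chr2:6097861-6097885, plus strand): gcaaAGAGTTCTACAGTCgtaaatc
Gm26708, promoter window (P7, chr7:84232963-84232985, plus strand): ttGAGTTCTACAGTCCaggtaac
Cxcr4, antisense to an exon (P7, chr1:128588562-128588587, plus strand): ctacAGTTCTACAGTCCtacacacag
Fam169b, antisense to an exon (P7, chr7:68279681-68279704, minus strand): tcattTTCTACAGTCCttcgatgc
Pcm1, antisense to an exon (P15, chr8:41261378-41261402, minus strand): ctgagTCTACAGTCCGAacatcctc
Gm9903, antisense to an exon (P15, chr5:33630055-33630076, minus strand): cttgTCTACAGTCCGAgcttca
Eno2, antisense to an exon (P15, chr6:124762660-124762681, plus strand): gtacACAGTCCGACGAcaagat
Chst2, antisense to an exon (P7, chr9:95405465-95405487, plus strand): tccacCAGTCCGACGAcctcctt
Cers6, antisense to an exon (P7, chr2:69105031-69105054, minus strand): agggtaggGTCCGACGATCtccca
Chd1, antisense to an exon (P7, chr17:15705134-15705156, minus strand): agcggGTCCGACGATCagttcat
Myf6, antisense to an exon (P7, chr10:107494413-107494434, plus strand): ctgcttTCCGACGATCtgtggg
Fnbp1l, antisense to an exon (P7, chr3:122541220-122541240, plus strand): ctgacagtCGACGATCagcta

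The runs were 8 to 14 bases long, sat inside the peak with other sequence on both sides, and came from different stretches of the adapter, from its position 5 (counted from 1 at the 5' end) to its last base, position 26. Positions 17, 18 and 19 were each in 11 of the 12 runs. The Fnbp1l run lacked 17 and 18, and the Proser2 run lacked 19. Of the 12 places, 9 had a peak in all 3 lists, among them Cxcr4, the chemokine receptor gene, and Eno2, the neuronal enolase gene. The peaks at Chd1 and Fnbp1l were in the P7 list alone, and that at Gm9903 in the P15 and replicate 2 lists. In the 3 places without such a run, the peak antisense to Gm43323, at chr5:66080903-66080928, was rich in A and T:
Gm43323, antisense to an exon (P7, plus strand): taaaaattaataaaTACcaaagtatg
That at Vmn1r43, a vomeronasal receptor gene, shared 5 bases with the adapter, and another shared 6.

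In each list the run lay on the strand of the peak. Of the 14 narrow P7 peaks with sequence 11 (78.6%) held 8 or more bases of the adapter, and of the 11 at P15 10 (90.9%). None held such a run of the adapter's reverse complement, of the fixed part of the 3' adapter (21 bases) or of its reverse complement. None of the 9 wider peaks outside genes with sequence, 1 at P7 and 8 at P15, held a run of the 5' adapter. The exon sequence of the same width just beside the peak, known on both sides for 11 of the P7 and 8 of the P15 peaks, held 0 such runs, against 8 and 7 in these peaks. For comparison, 0.420% of the first 25 bases of 32851 RefSeq promoter windows held one. The replicate 2 list gave 14 of 19 narrow peaks outside genes (73.7%) with a run. These values were noticed in the peaks themselves and are given as a description. Of the narrow peaks outside genes, 417 at P7 and 291 at P15 were not read.

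**Figure D1:**
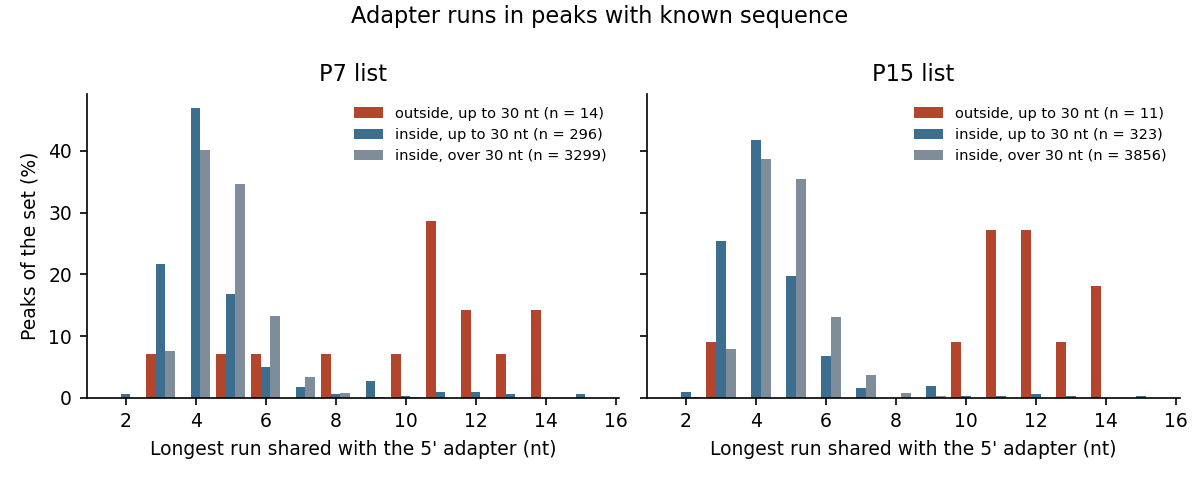
Longest run of bases that a peak shares with the 5' adapter on its own strand (x axis, nt), as a share of the peaks of each set with known sequence (y axis, %), for the P7 and P15 lists. Most narrow peaks outside genes lie at 8 bases or more, while most peaks inside genes lie at 3 to 6.

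The same count was then made on peaks inside genes. Of narrow peaks inside genes, 21 of 296 at P7 (7.09%) and 12 of 323 at P15 (3.72%) held 8 or more adapter bases, against 34 of 3299 (1.03%) and 42 of 3856 (1.09%) of wider ones (Fisher's exact test, two-sided, Benjamini-Hochberg over the 2 lists, adjusted exact p = 1.08e-09 and 0.000654). The wider peaks have more room for a run, and with runs of only 6 bases the narrow peaks held fewer (13.9% against 17.6% at P7, adjusted exact p = 0.109, and 12.1% against 17.8% at P15, adjusted exact p = 0.0149). Among the narrow inside-gene peaks of P15, 10 of the 41 that overlapped a P7 peak held a run of 8 or more, and 2 of the 282 that did not. At P7 the split by overlap with P15 gave 10 of 60 and 11 of 236, and in the replicate 2 list, by overlap with P15, it gave 12 of 98 and 9 of 58, the other order. What part the adapter bases play in the peaks was not tested.

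Peaks outside genes were narrower than those inside. The median width was 26 nt at P7 and 27 nt at P15, against 51 and 54 nt inside genes. At P7 431 (70.5%, 66.8 to 74.1) were at most 30 nt wide, against 486 of 4273 (11.4%) inside genes, and at P15 302 (54.7%, 50.5 to 58.9) against 443 of 4621 (9.59%) (Fisher's exact test, two-sided, adjusted exact p = 7.57e-208 and 5.40e-129). Within this range the widths piled up at 23 to 27 nt, which held 380 peaks (62.2%) at P7 and 258 (46.7%) at P15. Peaks in introns had the same shape: 121 of 176 at P7 (68.8%) and 75 of 136 at P15 (55.1%) were narrow, and the difference from peaks outside genes was not detectable (adjusted exact p = 1.0 at both ages, differences of 1.79 and -0.44 percentage points).

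**Figure D2:**
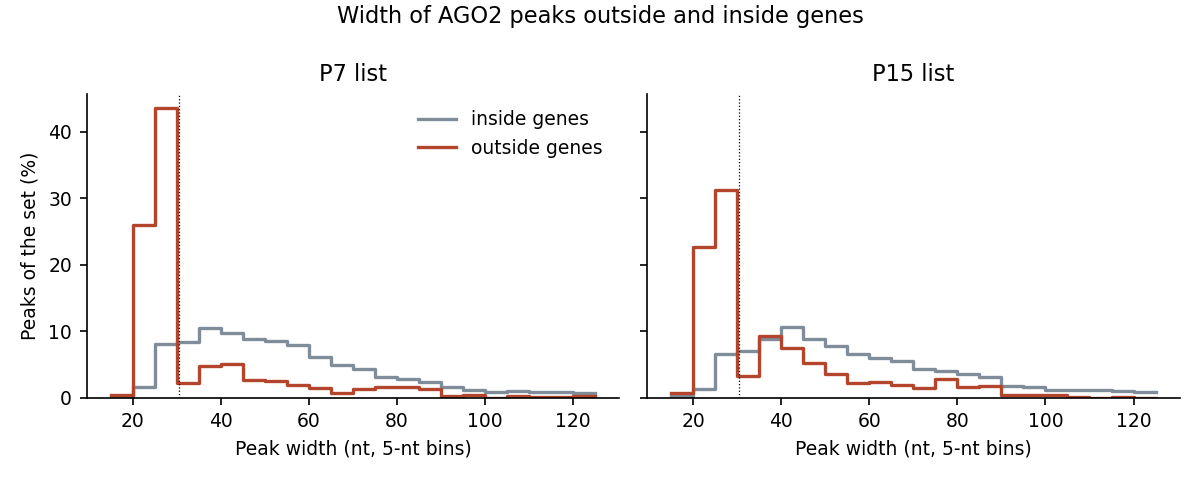
Width of AGO2 peaks in 5-nt bins (x axis) as a share of the peaks outside or inside genes (y axis, %), for each list, with the 30-nt limit dotted and the widest peaks not drawn. Peaks outside genes pile up at 20 to 29 nt, and those inside genes spread around a median of 51 (P7) or 54 nt (P15).

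The peaks fell into kinds of place that differed in width. Peaks on RefSeq tRNA genes were 28 (4.58%) at P7 and 61 (11.1%) at P15, and 2 of them at each age were narrow. Peaks in another RefSeq gene on the strand, which GENCODE M21 does not annotate there, were 38 at P7 and 55 at P15, and 17 and 8 of them were narrow. Of the rest, 186 and 148 lay antisense to a gene body, 163 (87.6%) and 122 (82.4%) of them narrow. A further 55 and 52 lay within 10000 nt downstream of a gene end on their strand, and 304 and 236 lay in none of these places. The last group, about as narrow as the whole (72.0% and 62.3%), made up 49.8% of the peaks outside genes at P7 and 42.8% at P15.

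Peaks outside genes were found again at the other age more often than peaks inside genes. At P7 381 (62.4%, 58.4 to 66.2) overlapped a P15 peak on the strand by 1 nt or more, against 28.5% of all P7 peaks and 23.7% of those inside genes. At P15 381 (69.0%, 65.0 to 72.9) overlapped a P7 peak, against 27.4% of all P15 peaks and 22.4% inside genes (Fisher's exact test, two-sided, outside against inside, adjusted exact p = 1.86e-78 and 2.69e-104). Against peaks in introns alone, the share was higher at P7 (52.3% in introns, adjusted exact p = 0.0366) and the same within error at P15 (69.1% in introns, difference -0.10 percentage points, adjusted exact p = 1.0). In the replicate 2 list, 464 (75.9%) of the P7 and 447 (81.0%) of the P15 peaks outside genes had a peak, against 18.3% and 20.6% of all peaks of those lists. All 3 lists shared 363 peaks, 59.4% of those of P7 and 65.8% of those of P15.

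The overlapping peaks often had the same edges. In 311 of the 381 pairs seen from either list (81.6%) both edges lay within 2 nt of each other, and in 126 they were identical. Inside genes 150 of 1011 overlapping P7 peaks did so (14.8%), and 14.5% of those of P15 (adjusted exact p = 2.10e-122 and 8.35e-125, a comparison added after the data were seen). Of overlapping intron peaks 79.3% at P7 and 77.7% at P15 did so, and no difference from peaks outside genes was detected (adjusted exact p = 0.656 for both). Among peaks wider than 30 nt alone the shares were 44.6% outside and 8.18% inside genes at P7. At P15 they were 44.9% and 7.80% (Fisher's exact test, two-sided, adjusted exact p = 6.93e-22 at P7 and 2.55e-22 at P15, also added after the data were seen). Among narrow peaks outside genes the edges lay within 2 nt in 257 of 260 overlapping P7 peaks and 258 of 263 P15 peaks. Of the narrow P15 peaks, 263 (87.1%) overlapped a P7 peak and 290 (96.0%) a replicate 2 list peak, while of the wider ones 118 (47.2%) and 157 (62.8%) did. At P7 narrow and wider peaks were nearer each other, with 260 (60.3%) and 121 (67.2%) overlapping a P15 peak.

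**Figure D3:**
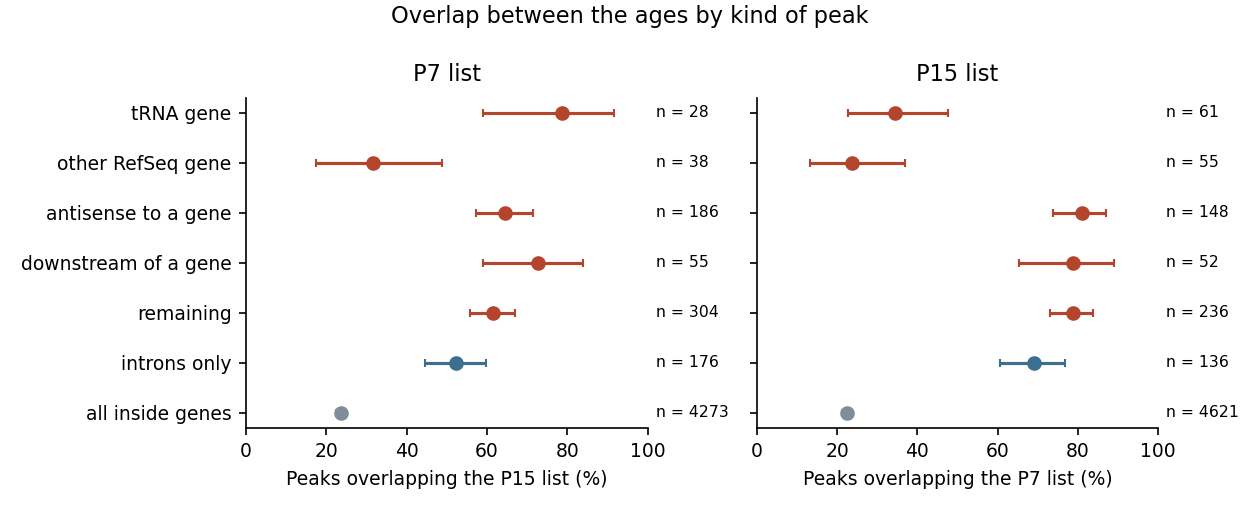
Share of peaks that overlap the list of the other age (x axis, %) by kind of place (y axis), with exact 95% binomial intervals and the number of peaks. At P15 the peaks on tRNA genes and in other RefSeq genes lie at 34.4% and 23.6%, below the 3 other kinds outside genes at 78.8% to 81.1%. Peaks inside genes lie at 22.4% at P15, and all P15 peaks together, not drawn, at 27.4%.

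Within the peaks outside genes, overlap differed by position at P15, where classes were cut by position alone, with tRNA and RefSeq gene peaks left in each. Those antisense to a gene overlapped a P7 peak in 124 of 161 cases (77.0%) against 257 of 391 (65.7%) for the rest (Fisher's exact test, two-sided, adjusted exact p = 0.0224). Of those not antisense, 57 of 114 within 10000 nt downstream of a gene end overlapped a P7 peak, against 200 of 277 (72.2%) further away (adjusted exact p = 0.000152). Of these 114 peaks 62 lay on tRNA genes or in RefSeq genes on the strand, and 16 of the 62 overlapped a P7 peak. Without such peaks the shares were alike in size, 41 of 52 downstream and 186 of 236 further away, and 120 of 148 antisense, which was not tested. At P7 neither comparison passed (63.9% against 61.6%, adjusted exact p = 0.654, and 65.9% against 60.5%, adjusted exact p = 0.513). With the replicate 2 list standing in for the P15 list, neither passed and the signs turned (67.6% against 68.4% and 72.3% against 67.6%, adjusted exact p = 0.861 for both).

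Most peaks outside genes stood alone. Another peak of the list on the strand lay within 1000 nt for 84 (13.7%) at P7 and 88 (15.9%) at P15, against 42.2% and 54.8% inside genes (adjusted exact p = 7.49e-47 and 2.01e-71). Against peaks in introns, of which 19.3% and 18.4% had such a neighbour, no difference was detected (adjusted exact p = 0.146 and 0.518). Joined within 1000 nt over both lists, the peaks formed 703 loci, of which 333 held 1 peak, 334 held 2 and 36 held 3 or more. Peaks of both ages lay in 358 loci, and 343 of these also had a replicate 2 list peak. P7 peaks alone made up 201 loci and P15 peaks alone 144.

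The locus with the most peaks, chr6:3200766-3201566 on the plus strand, had 6 peaks at P7, 5 at P15 and 6 in the replicate 2 list, between 23 and 99 nt wide at the 2 ages. Its nearest gene end on the strand was that of Gm42959, 9863 nt upstream. The next, chr15:86194766-86195301 (plus strand), had 5 peaks at each age and 2 in the replicate 2 list, over 424 covered nt of a 536-nt span, 7613 nt past the end of Gm15569, an antisense RNA gene. At chr3:62159105-62159492 (plus strand) 5 P7 and 3 P15 peaks lay 35539 nt from the nearest upstream gene end. A locus on chromosome 18, chr18:54698911-54699377 (minus strand), had 3 and 4 peaks 69006 nt from any upstream gene end. At chr11:109011677-109012105 (minus strand) 5 P7 and 2 P15 peaks covered 342 nt, the most of any locus that was not antisense or downstream of a gene and had peaks at both ages. All of these places held peaks in all 3 lists.

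Others of the 10 loci with the most peaks, ranked by the peaks of both ages together, also had peaks at both ages. They lay at chr3:5860356-5860825 (plus strand, 4 P7 and 2 P15 peaks), chr18:85697947-85698177 (minus strand, 3 and 2) and chr6:109505161-109505472 (minus strand, 3 and 2). The last was 1134280 nt from the nearest upstream gene end on its strand. Not every peak at these places returned. The P7 peaks at chr3:5860446-5860561, chr18:85697947-85697977 and chr6:109505413-109505472, for example, overlapped no P15 peak. Another of the 10, at chr7:130834424-130834628, lay antisense to Fgfr2, a receptor for fibroblast growth factors, with 3 peaks in each of the lists. The annotated body of Fgfr2 is 2960900 nt long. On its own strand the locus lay 8524 nt past the end of Btbd16 and 31127 nt before the start of Plekha1. The peaks of the locus were 58, 41 and 24 nt wide at P7 and 54, 43 and 22 nt wide at P15, and each overlapped its counterpart.

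Peaks outside genes were spread over the chromosomes more evenly than those inside. Over the 19 autosomes and the X, P7 peaks outside genes ranged from 0.136 per Mb of annotated span (chromosome 14) to 0.309 per Mb (chromosome 18), a 2.27-fold range. Those inside genes ranged from 0.638 per Mb (X) to 4.17 per Mb (chromosome 11), 6.53-fold. The number of P7 peaks outside genes followed the span of a chromosome (Pearson's r = 0.80, Spearman's rho = 0.78, n = 20 chromosomes that share a library), and that inside genes did so less closely (r = 0.37, rho = 0.48). At P15 the range was 3.21-fold, from 0.117 per Mb on chromosome 12 to 0.374 per Mb on chromosome 13 (r = 0.54, rho = 0.51), and for its narrow peaks alone r was 0.71. Chromosomes 2 (50 peaks) and 3 (44) held most at P7, and chromosomes 13 (45) and 6 (42) at P15.

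Chromosome 13 stood out at P15 through tRNA genes, which lie there in a cluster beside the histone genes. Of its 45 peaks outside genes at P15 22 lay on tRNA genes, against 7 of 30 at P7. In all, 28 of the 408 nuclear tRNA genes of RefSeq had a peak outside GENCODE genes at P7 and 60 at P15, with 21 in both of these sets, and 57 had one in the replicate 2 list. A further 2 tRNA peaks at P7 and 10 at P15 lay inside GENCODE genes. With these, 30 tRNA genes had a peak at P7 and 70 at P15, 23 at both ages, 7 at P7 alone and 47 at P15 alone. The replicate 2 list had peaks on 66, among them 46 of the 70 and all 23 found at both ages. Counted as peaks outside GENCODE genes, 78.6% of the P7 tRNA peaks overlapped a P15 peak, and 34.4% of the P15 tRNA peaks a P7 peak. Of all peaks of the lists 28.5% at P7 and 27.4% at P15 overlapped the other age. Of the 408 genes 78 overlap a GENCODE gene on either strand, so most tRNA peaks fall outside genes by the annotation. tRNA genes have near-identical copies, so which copy gave a peak is uncertain, and the strand of a tRNA gene was taken from its peak. No tRNA gene had peaks on both strands.

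**Figure D4:**
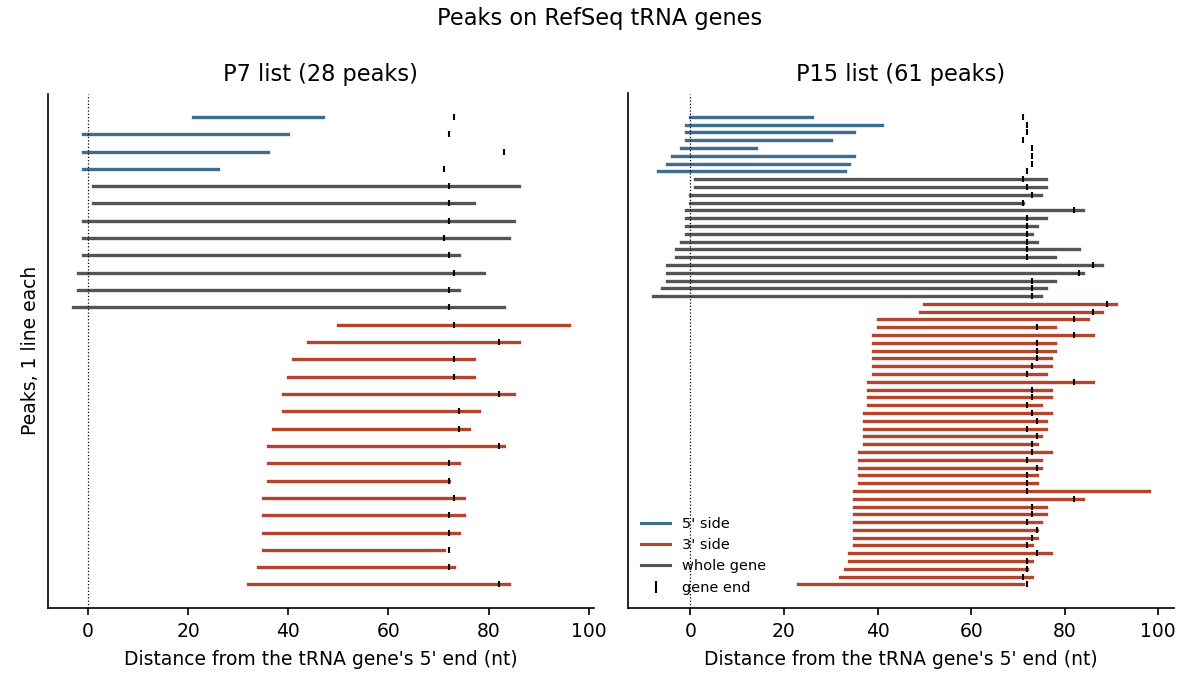
Extent of each peak outside GENCODE genes on a tRNA gene, 1 line per peak, along the gene from its 5' end (x axis, nt), with the annotated gene end as a tick. Most lines begin near the middle of the gene and end a few nt past it, at both ages.

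Most tRNA peaks outside GENCODE genes covered the 3' side of the tRNA gene. These 3'-side peaks were 16 of 28 at P7 and 37 of 61 at P15, with a median width of 39 nt at both ages and a median start 36 and 37 nt into the gene. A further 8 and 16 peaks covered the whole gene (median 83 and 79 nt), and 4 and 8 its 5' side (median 32 and 37.5 nt). Of the 3'-side and whole-gene peaks 16 of 24 at P7 and 46 of 53 at P15 ended 1 to 5 nt past the annotated gene end. Mature tRNAs carry a CCA end that is added after transcription and is not in the gene. The distance past the end differed with the strand, with a median of 4 nt on the plus and 2 nt on the minus strand at both ages. The 5' ends of the 5'-side and whole-gene peaks had medians of 0 (plus) and -1 nt (minus) from the gene start at P7. At P15 these were -2 and -1 nt, the other order. Whether a 1-nt offset in how positions are counted has a part in these distances was not tested.

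By amino acid, and with peaks inside GENCODE genes counted too, 4 of 24 arginine tRNA genes had a peak at P7 and 13 at P15 (3 and 9 by peaks outside genes). The counts were 2 and 9 of 33 for alanine and 1 and 10 of 17 for threonine, against 4 and 5 of 16 for aspartate and 2 and 2 of 56 for cysteine. In the replicate 2 list 13 arginine, 4 alanine and 5 threonine tRNA genes had a peak. The aspartate tRNA gene n-TDgtc16 at chr10:91182097-91182168 had a whole-gene peak in each list, 76 nt wide at P7, 75 at P15 and 74 in the replicate 2 list. The arginine tRNA gene n-TRtcg4 at chr11:115413779-115413851 had a 3'-side peak in each, 36, 40 and 40 nt wide. At the glycine tRNA gene n-TGgcc10, chr8:110631246-110631316, the form differed, with a whole-gene peak of 85 nt at P7 and 5'-side peaks of 31 and 30 nt in the P15 and replicate 2 lists. These 3 genes were chosen after their values were seen. With no peak heights, the count of genes depends on each list's depth and threshold, whose part was not tested.

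The distance to the next gene was asked next, with loci upstream of gene starts set beside loci downstream of gene ends. Of the 703 loci, 99 (14.1%) lay within 5000 nt downstream of a gene end and 72 (10.2%) within 5000 nt upstream of a gene start, and within 10000 nt 150 (21.3%) and 120 (17.1%) did (exact McNemar test, two-sided, Benjamini-Hochberg over 3 distances, adjusted exact p = 0.0456 for both). Within 1000 nt the counts were 41 and 27 (adjusted exact p = 0.0980). Wider peaks gave the difference on their own. Their 252 loci lay near an end and near a start in 31 and 17 cases within 1000 nt, 67 and 41 within 5000 nt and 97 and 69 within 10000 nt (adjusted exact p = 0.0436, 0.00914 and 0.00914). The 472 loci of narrow peaks gave 12 and 11, 37 and 32, and 63 and 53 (adjusted exact p = 1.0, 0.922 and 0.922). The difference between wide and narrow was itself not tested, and the split by width was added after the data were seen. By age, the P15 list alone gave 81 and 53 within 5000 nt (adjusted exact p = 0.0292) and the P7 list alone 59 and 50 (adjusted exact p = 0.743). Without the loci antisense to a gene the counts within 5000 nt were 76 and 53 (adjusted exact p = 0.0698), and with the replicate 2 list standing in for the P15 list 83 and 69 (adjusted exact p = 0.445).

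**Figure D5:**
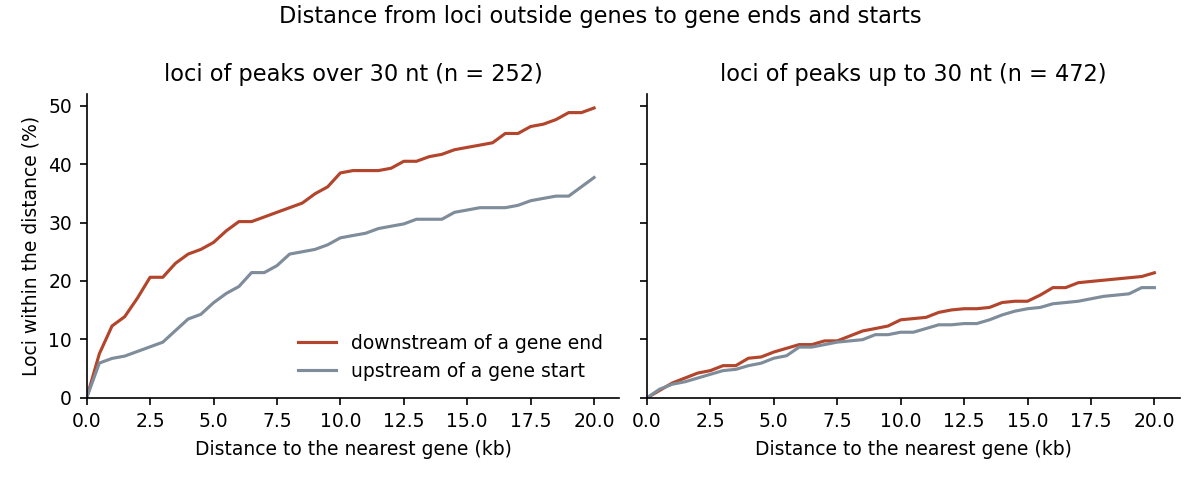
Share of loci outside genes (y axis, %) within a given distance (x axis, kb) downstream of the nearest gene end or upstream of the nearest gene start on the strand, for loci of peaks over 30 nt and up to 30 nt. For wider peaks the curve for gene ends lies above that for gene starts, with 26.6% and 16.3% at 5000 nt, and for narrow peaks the curves run close, with 7.84% and 6.78%.

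RefSeq draws some of these genes longer. Peaks within the RefSeq span of the gene that ended upstream of them in GENCODE numbered 17 at P7, in 10 genes, and 43 at P15, in 27 genes, 31 genes in all and 6 at both ages. Of these peaks 13 and 41 were wider than 30 nt. At P7 4 of the 17 overlapped a peak of the other age, and at P15 5 of the 43 did. Of all peaks 28.5% at P7 and 27.4% at P15 did so, and of all peaks outside genes 62.4% and 69.0%. The 5 of 43 at P15 was a lower share than either. A peak listed at a single age is thus the usual case over all peaks, but not among peaks outside genes. The peaks within the RefSeq span lay at a median of 2146 nt (P7) and 1033 nt (P15) past the GENCODE end.

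Gabrb2, a subunit of the GABA-A receptor, had most of these at P15, 6 peaks against 0 at P7. They lay between 645 and 3470 nt past its GENCODE end at chr11:42629028, in a RefSeq gene that runs 3563 nt further, and were 38 to 75 nt wide. The one at chr11:42630780-42630852 also had a replicate 2 list peak. Kcna1, a voltage-gated potassium channel gene, likewise had 3 P15 peaks and no P7 peak, 90 to 1609 nt past its end, and Rbfox1, a splicing regulator gene of neurons, had 2 P15 peaks 438 and 889 nt past its end. Vash1, the gene of a tubulin carboxypeptidase, showed the other order, with 5 P7 peaks 366 to 3353 nt past its end and 1 P15 peak at 3568 nt, and none overlapped between ages. Soga1 had 3 P7 and 2 P15 peaks up to 5252 nt past its end, and 25 and 11 more inside its body.

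Zic2, a transcription factor gene of cerebellar granule cells, had 1 P7 peak 121 nt wide at chr14:122480096-122480216, which overlapped 2 of its 3 P15 peaks, at chr14:122480102-122480163 and chr14:122480197-122480227. It was the single gene of the Purkinje cell, granule cell, glial and miRNA pathway lists, 67 genes in all, with a peak within 10000 nt downstream, at either age. Of all 21992 protein-coding genes 50 (0.227%) had one at P7 and 68 (0.309%) at P15.

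Of the 136 genes with a peak outside genes within 10000 nt downstream at either age, 108 had none that RefSeq places in the gene. Those of the 108 with 4 or more such peaks were Gm15569 and Gm42959 (the loci above), AC154486.1 (3 P7 and 3 P15 peaks, 2335 to 3652 nt past its end), Btbd16 (the Fgfr2 locus), Gm11279 (2 and 2, 75 to 86 nt wide, on the tRNA genes n-TMcat2 and n-TDgtc11), Gm27679 (2 and 2, 76 to 82 nt wide), Rimbp3 (2 and 2, 20 to 38 nt wide) and Gm26917 (0 and 4). The Gm26917 peaks, at chr17:39846487-39846915 on the plus strand, lay between this lincRNA gene and Gm42418, antisense to CT010467.1, which GENCODE annotates as an rRNA gene. They were 66, 101, 77 and 43 nt wide at P15, and the replicate 2 list had 4 peaks at the same place, 89, 100, 85 and 38 nt wide. The P7 list had none there, while inside the body of Gm26917 it had 5 peaks and the P15 list 14.

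Genes lay on the other strand for 194 (31.8%, 28.1 to 35.6) of the P7 and 161 (29.2%, 25.4 to 33.1) of the P15 peaks outside genes. Inside genes, where the peak's own strand is taken too, 7.07% and 8.63% had a gene on the other strand (Fisher's exact test, two-sided, adjusted exact p = 1.08e-58 and 1.71e-37). The rule itself sets whether a gene lies on the peak's own strand, and annotated genes seldom overlap on both strands. The test therefore cannot say whether peaks outside genes favour the strand opposite a gene. How much of the gene-free strand lies opposite a gene was not measured. Most of the peaks outside genes with a gene on the other strand lay opposite introns, 178 at P7 and 142 at P15, and 16 and 19 touched an exon. The gene was protein-coding for 170 and 133. None of the 611 and 552 peaks had a peak of its list at the same place on the other strand, which allows a share of up to 0.491% and 0.543%.

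The antisense peaks lay opposite 217 genes, 123 of them at both ages. Of these genes 89 had 1 peak over both ages, 117 had 2 and 11 had 3 or more. Behind Fgfr2 (3 and 3 peaks) and CT010467.1 (0 and 4) came Jarid2, a gene for a subunit of a Polycomb complex, Egfem1, and Kcnip4, a gene for a potassium channel-interacting protein, with 2 peaks at each age. Egfem1 peaks were 23 to 26 nt wide and those of Kcnip4 25 to 27 nt, while those of Jarid2 reached 130 nt. The annotated bodies differed in length, with 2960900 nt for Fgfr2, 1135406 nt for Kcnip4 and 609187 nt for Egfem1. Those of Jarid2 and CT010467.1 were 192170 and 2475 nt long, and the counts were not scaled by length. Vac14, Gm5577 and Psd3 had 1 P7 and 2 P15 peaks, and Cntnap5b and Tmtc2 had 2 and 1. The Vac14 peaks were the tRNA peaks at n-TGgcc10 and its neighbour n-TGgcc11.

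Among the gene lists, Foxp2, a transcription factor gene of Purkinje cells, had an antisense peak of 26 nt at P7, at chr6:15429304-15429329, with a replicate 2 list peak 25 nt wide there and none at P15. Xpo5, the exporter of miRNA precursors from the nucleus, had one at each age, 26 nt wide at P7 (chr17:46206951-46206976) and 25 nt at P15, with the same start. No granule cell or glial gene of the lists had one. Of all protein-coding genes 162 (0.737%) had an antisense peak at P7 and 128 (0.582%) at P15.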

How the data were processed

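The peak lists were deposited by the authors as BED tables (mm10, per the submitters' processing notes), and every entry of the deposited lists has a score of 0. The peak caller, its thresholds and any pooling of libraries were not given in the sources used here. The P7 list is named with both P7 target libraries and the P15 list with 1 of 2. The submitters' processing notes name, without a role, Bowtie2 2.4.2, cutadapt 2.10, deepTools 3.1.3, STAR 2.5.2a and UMI-tools. The deposited miRNA files and the input libraries were not analysed here.

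Peaks were placed on GENCODE M21 gene bodies and RefSeq (GRCm38.p6) genes by strand, with Python 3.11.15, scipy 1.17.1, numpy 2.4.6, pandas 2.3.3 and matplotlib 3.10.9. RefSeq strands came from its promoter table or the GENCODE gene of the name (98.8% of protein-coding genes). Shares of peaks were compared with Fisher's exact test and gene ends with starts by an exact McNemar test, both two-sided, Benjamini-Hochberg adjusted within each question, with a threshold of 0.05. Helpers were tested on simulated data. Members and lists were chosen with earlier results of these data known. Named are the 10 loci with most peaks, up to 10 genes with most downstream or antisense peaks, up to 10 loci away from genes by covered length, and chromosomes with most peaks, of which 1 locus is not reported here; sequences are shown where they could be read in full within 30 nt, except on chromosome 18. Alternatives covered gene sets, overlap rules, width limits, distances, units and the replicate 2 list.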

Additional observations from a re-analysis of the deposited data

How the results depend on the processing

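Of 91 alternative values of 21 results, 69 kept the direction and the side of the threshold (for counts, stayed within 1.5 times). With peaks in introns in place of all peaks inside genes, chosen after the data were seen, the P15 differences reversed to -0.10 percentage points for overlap and -0.44 for narrow peaks; the narrow share at P7 differed by 1.79 points, neighbours within 1000 nt by -5.57 (P7) and -2.44 (P15), and near-identical edges by 2.28 and 3.97, none past the threshold. With the replicate 2 list, overlap by class reversed for downstream peaks at P7 (-6.22) and P15 (4.74) and for antisense peaks at P15 (-0.84), and the excess at gene ends fell to 1.85 points within 5000 nt and 1.46 within 10000 nt. That excess was also below the threshold without antisense loci (4.74 and 4.95), for narrow peaks (1.06 and 2.12) and for the P7 list alone (1.61 and 1.07); within 1000 nt it passed with peaks as the unit (1.81) and for wider peaks (5.56). Runs of 6 adapter bases reversed the inside-gene comparison (-3.79 at P7, -5.77 at P15). The causes were not tested. Counting genes on either strand left 417 and 391 peaks outside genes, and adding RefSeq and tRNA genes 545 and 436. No paired analysis was possible because the results come from 1 peak list per age, with no value per replicate. The lists give no peak height, so depth limits every count between ages in a way that could not be measured.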

Other observations

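Narrow peaks outside genes that were in the replicate 2 list alone gave further sequences of the same kind, chosen after their values were seen. That antisense to an exon of Nradd held a run of 12 adapter bases, and those of Asb10 and Cd3e runs of 9. Peaks antisense to exons of Clock and Lrrc6 shared 3 bases with the adapter, and one antisense to mt-Nd4 on the mitochondrial chromosome 4. Over all 3 lists, 16 of 22 places with a narrow peak outside genes and known sequence (72.7%, exact 95% interval 49.8 to 89.3) held a run of 8 or more. A few narrow peaks in introns could be read too, in an exon of the other strand or a RefSeq promoter window. These were 2 at P7, 1 at P15 and 3 in the replicate 2 list, and all held such a run.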
